A study of Mus musculus with 6 samples.

Results

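The genes described here carry the signal of erythropoietin and of stem cell factor into red cell precursors. They are the receptors Epor and Kit, the kinase Jak2, the transcription factors Stat5a and Stat5b, and the feedback genes Cish, Socs1, Socs3 and Pim1. The list of 10 genes also named the kinase Lyn, which was not analysed here. All probe sets that the platform annotation assigns to these symbols alone were taken, which gave 16 probe sets of 9 genes, out of 45032 probe sets and 18192 genes. Of the 16 probe sets, 15 passed the filter on low values, and the one under it belongs to Stat5a, so all 9 genes were tested.

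The RNA came from mouse bone marrow cells that had been sorted as positive for both Ter-119, an erythroid surface antigen, and CD71, the receptor for transferrin. It was hybridised to 6 single-colour Affymetrix arrays, of which 3 are labelled control and 3 mutant, numbered 1 to 3 in each group. Mice called Rb-null were EpoR-GFPcre/+ with Rb fl/fl, and their controls, also EpoR-GFPcre/+, had Rb fl/+. Thus every animal carried 1 Epor allele with the GFPcre insertion, the driver that restricts Cre to cells using the Epor locus, and every control carried 1 floxed Rb allele. Neither group has 2 unmodified copies of Epor. The ages of the mice, the number of animals behind each array and the position of the Epor probes relative to the insertion were not given in the sources used here. Nothing says that the arrays are separate animals, so p-values reflect only how far these samples differ, and part of that may be technical.

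Erythropoietin binds Epor, a receptor without enzyme activity of its own, and activates the kinase Jak2 that is bound to it. Jak2 phosphorylates STAT5, which enters the nucleus and switches on target genes. Some of these targets, Cish and the Socs genes, encode proteins that damp the same receptor, and Pim1 encodes a survival kinase. Kit, the receptor tyrosine kinase for stem cell factor, supports early erythroid progenitors and is switched off as they mature.

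None of the 9 genes passed the test between Rb-null and control arrays. The clearest difference was on the dimmer Jak2 probe set, which read 1.75-fold higher in Rb-null than in control. Its groups did not overlap, as was so for 9.64% of all probe sets. The brighter one, which stands for the gene, read 1.21-fold higher. Its log2 fold change was 0.20 (SE 0.31), and -0.01 without Rb-null array 1. Both read higher in each of the 3 same-numbered pairs, as did 20.3% of all probe sets. Socs3 read 2.34-fold higher by mean intensity on the probe set that stands for the gene, the brightest of its 3 over all 6 arrays. The log2 fold change there was 0.81 (SE 0.59), and the groups overlapped. Another Socs3 probe set showed no such difference, and in controls that one was the brighter, with a mean of 43.0 against 39.9. Epor had nearly the same mean in the 2 groups, 1032 and 1011, yet the Rb-null arrays alone differed up to 8.99-fold.

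STAT5 dimers bind a palindrome, TTCNNNGAA, and the promoters of the feedback genes show where it lies. Promoter sequences from RefSeq (GRCm38.p6, from 250 bases before to 50 after the start) were matched for 9 of the 10 listed genes, in 13 windows. The Cish window, chr9:107296409-107296708 on the + strand, held 2 copies, and the Socs3 window, chr11:117969317-117969616 on the - strand, held 1. No copy was found in the windows of Epor, Kit, Jak2, Stat5a, Stat5b, Socs1 or Pim1. Across all 32851 promoter windows of this length, 8.30% held the palindrome and 0.457% held 2 or more copies. These 2 promoters are shown because they are the members' promoters that hold the palindrome. Capitals mark the palindrome.
Cish: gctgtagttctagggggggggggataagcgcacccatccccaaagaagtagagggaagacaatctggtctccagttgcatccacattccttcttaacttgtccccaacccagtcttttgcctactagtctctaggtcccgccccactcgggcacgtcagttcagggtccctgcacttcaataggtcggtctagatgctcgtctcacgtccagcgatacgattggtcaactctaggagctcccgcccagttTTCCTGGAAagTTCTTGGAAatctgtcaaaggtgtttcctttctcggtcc
Socs3: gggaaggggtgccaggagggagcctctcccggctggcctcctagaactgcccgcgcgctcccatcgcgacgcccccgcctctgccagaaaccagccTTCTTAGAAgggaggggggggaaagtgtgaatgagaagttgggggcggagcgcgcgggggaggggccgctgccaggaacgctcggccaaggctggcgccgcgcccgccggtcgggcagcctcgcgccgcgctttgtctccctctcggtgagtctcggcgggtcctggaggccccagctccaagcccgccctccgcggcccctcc
The Epor promoter is shown because the Epor values below differ widely between arrays. Its window is chr9:21963527-21963826 on the - strand. Capitals mark 1 copy of AGATAA, the core of a GATA factor site, read here as its reverse complement, and 4 overlapping matches to CCNCNCCC, a CACCC-type pattern of Kruppel-like factors, which run together in 2 blocks. Both strands were searched. AGATAA was present in 11.2% of all windows and CCNCNCCC in 49.5%, with 2 or more matches to CCNCNCCC in 30.6%. None of the other members had AGATAA, whereas each of them with a promoter window also had CCNCNCCC. A match is a letter pattern and not a measured site.
Epor: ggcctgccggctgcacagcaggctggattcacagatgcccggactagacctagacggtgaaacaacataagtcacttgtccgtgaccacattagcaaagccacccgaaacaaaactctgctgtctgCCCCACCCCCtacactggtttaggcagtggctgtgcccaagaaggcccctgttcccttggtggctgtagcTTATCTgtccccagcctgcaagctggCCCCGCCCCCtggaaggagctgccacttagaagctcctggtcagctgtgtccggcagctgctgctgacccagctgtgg

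The sorted cells carried strong signal of erythroid genes. Tfrc, which encodes CD71, read 6086 to 8506 over the 6 arrays, and Slc4a1, the band 3 anion exchanger, read 9114 to 10221. Of 15 erythroid markers 11, Epor among them, passed the filter, with summed intensities of 43626 to 46060 in controls and 42604 to 52116 in Rb-null cells. Hba-a1, an alpha globin gene and a defining marker of this lineage, read at most 27.0 on the probe set assigned to it and lay under the filter. Granulocyte markers were also bright (13 of 15 past the filter), with sums of 36009 to 52976 in controls and 26729 to 53561 in Rb-null cells, and a median log2 fold change of -0.41. Rb1, the floxed gene, read 1379 to 2760 in controls and 2897 to 4045 in Rb-null cells, higher in the latter. Where its probes lie relative to the floxed part was not given in the sources used here, and this signal therefore does not check the labels. Both arrays numbered 3 stood apart, with 18S ribosomal control signal of 1231 and 542 against 32.6 to 66.2 elsewhere and medians of 23.3 and 24.5 against 28.9 to 31.2. Precision is limited by having 3 arrays a group.

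**Figure D1:**
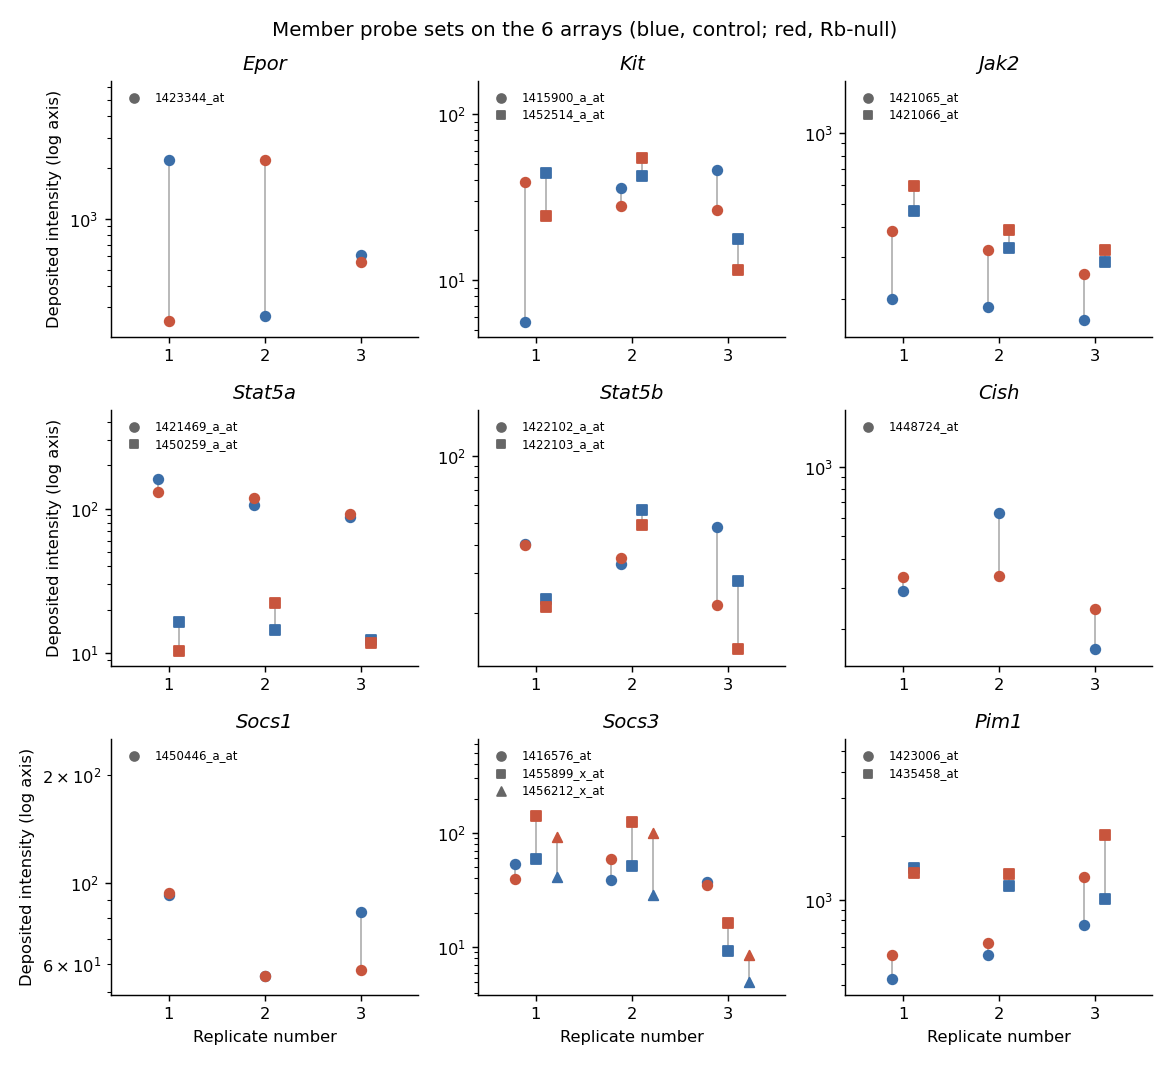
Deposited intensity of each member probe set (log axis, arbitrary units) against replicate number, with control in blue, Rb-null in red, a shape per probe set and a grey line joining arrays of the same number. Epor swings in opposite directions in pairs 1 and 2, whereas each Rb-null point of both Jak2 probe sets lies above its control partner.

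Epor, the erythropoietin receptor, is represented by 1 probe set. It read 2221, 266 and 609 on control arrays 1, 2 and 3. The Rb-null arrays, in the same order, read 248, 2228 and 558. Control 1 and Rb-null 2 were high, control 2 and Rb-null 1 were low, and the arrays numbered 3 lay between, so the groups overlapped fully. The means were 1032 ± 1044 (SD, n = 3) in controls and 1011 ± 1065 (SD, n = 3) for Rb-null. The log2 fold change was -0.14 (SE 0.90, 95% interval -2.18 to 1.90), and Epor did not pass limma's moderated test (adjusted p = 1.00 over 13232 genes). Rb-null minus control was -3.24 in pair 1, 2.96 in pair 2 and -0.14 in pair 3 on the log2 scale. Leaving out control array 1 gave a group difference of 0.69 and leaving out control array 2 gave -0.93, so single arrays set the sign.

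This spread was wide for the series. The SD of Epor within groups was 1.55 on the log2 scale, and 36 of the 13232 genes tested (0.272%, Epor among them) had one at least as large. A pair at least as far above 0 together with a pair at least as far below 0 occurred in 4 genes (0.0302%). They were Epor, Phactr1, Diras1 and Rpgrip1, and were named after their values were seen. The values of Epor itself set the cutoffs of both shares, which therefore describe its place among the genes and are not a test. Phactr1, a regulator of actin, read 4380, 215 and 449 in controls 1, 2 and 3 and 405, 3682 and 345 in the matching Rb-null arrays. Diras1, a small GTPase, read 4596, 34.8 and 71.2 in controls and 87.1, 4855 and 31.98 in Rb-null arrays. As in Epor, control 1 and Rb-null 2 were the high arrays of these 2 genes, while Rpgrip1 had another order, with its greatest rise, of 5.33, in pair 3.

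The 5 tested genes with profiles nearest to Epor over the 6 arrays were Mgat4a, Dctn2, Rpl12, Phactr1 and Lhx4. Likeness was the root mean square distance between log2 profiles centred on their own means, which was 0.50 to 0.67, against 1.27 for Epor from a flat line. The dynactin subunit Dctn2 read 1279 on control 1 and 1317 on Rb-null 2, and 165 to 342 on the other 4 arrays. Mgat4a, a glycosyltransferase, read 164 on control 1 and 167 on Rb-null 2, and 21.3 to 44.1 elsewhere. Where these genes had further probe sets, the whole pattern was not repeated in them. The other 3 of Phactr1 read at most 58.7. The other one of Mgat4a repeated the drop in pair 1, from 20.8 to 8.37, but not the rise in pair 2, where it read 15.2 and 11.6. That of Lhx4 likewise read 30.1 and 10.1 in pair 1 and 26.9 and 23.9 in pair 2. Epor has no further probe set to compare.

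**Figure D2:**
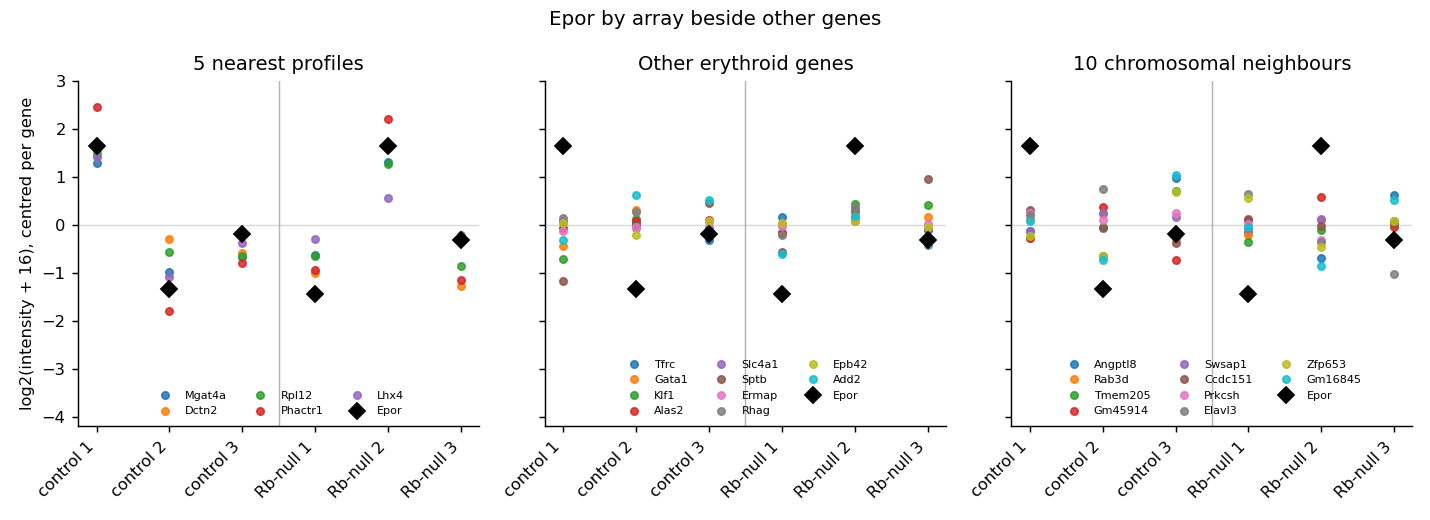
Deposited intensity as log2(value + 16), centred on each gene's mean over the 6 arrays, for Epor (black diamonds) beside its 5 nearest profiles, the 10 other erythroid markers past the filter and the 10 nearest tested genes along the chromosome. The nearest profiles follow Epor on control 1 and Rb-null 2, and the other 2 sets stay closer to 0 on those arrays.

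Other erythroid genes did not share the swing of Epor. Over the 10 other erythroid markers past the filter, the log2 difference of pair 1 ran from -0.41 to 0.57 and that of pair 2 from -0.46 to 0.31, against -3.24 and 2.96 for Epor. Gata1, the master factor of the erythroid lineage, read 1057 on control 1 and 1281 on Rb-null 1. Klf1, which binds CACCC elements, read 2369 and 3424 on the same arrays. The 5 nearest tested genes on each side of Epor, in the gene order of GRCm38.p6, were also unlike it, with -0.29 to 0.85 in pair 1 and -1.06 to 0.18 in pair 2. Swsap1 and Ccdc151, the next tested genes on either side, had 0.14 and -0.14 in pair 1.

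Kit, the stem cell factor receptor, was dim on both of its probe sets. The representative one read 44.2, 42.5 and 17.7 on controls 1, 2 and 3 and 24.2, 54.2 and 11.5 on the matching Rb-null arrays. Rb-null was the lower array in pairs 1 and 3 and the higher one in pair 2. The other probe set read 5.62, 36.0 and 46.2 in controls and 39.1, 27.9 and 26.2 in Rb-null cells, so it went the opposite way in pairs 1 and 2 and the same way, down, in pair 3. The log2 fold changes were -0.21 (SE 0.36) and 0.17 (SE 0.44), and the mean levels of 5.50 and 5.47 lay close to the filter value of log2 5.12. Kit did not pass the test (limma adjusted p = 1.00), and its 2 probe sets disagree.

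Markers of cells that use Kit were present at varied levels. Of 10 early progenitor markers, a list that includes Kit, 6 passed the filter, with sums of 576 to 688 in controls and 468 to 706 in Rb-null cells, and Cd34, a marker of stem and progenitor cells, read at most 22.2. Myb, a progenitor transcription factor, read up to 237, and Spi1, which encodes PU.1, up to 293. Mast cell and basophil markers, 7 of 11 past the filter, summed to 397 to 490 and 352 to 490, and Cpa3, the mast cell carboxypeptidase, read at most 25.7, whereas the tryptase Tpsb2 read up to 205 and the chymase Mcpt4 up to 182. No marker of either list was at 0, and their part in the Kit signal was not tested. Fewer cells of a type and less RNA per cell cannot be told apart in such bulk samples. The 5 tested genes nearest to Kit, by the same distance, were Sec24b, Ugdh, Bphl, Nup37 and Cnn3 (0.07 to 0.09, against 0.41 for Kit from a flat line), and on the probe sets that stand for these genes and for Kit both arrays numbered 3 were the dimmest. The other Kit probe set was brightest on control 3. Some further probe sets of Cnn3, and those of Bphl, which read at most 21.7, were also brightest on an array numbered 3. Others of Cnn3 and the further one of Sec24b were again dimmest on both arrays numbered 3.

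Jak2, the kinase bound to Epor, has 2 probe sets. The brighter one, which stands for the gene, read 467, 327 and 287 on controls 1, 2 and 3 and 594, 389 and 320 on the matching Rb-null arrays. Rb-null was above control in each pair, yet the groups overlapped, since the arrays numbered 1 were the brightest in both. The log2 fold change was 0.20 (SE 0.31, 95% interval -0.51 to 0.91; limma adjusted p = 1.00). Without Rb-null array 1 it was -0.01.

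The dimmer Jak2 probe set showed the larger difference. It read 201, 185 and 163 on controls 1, 2 and 3 and 385, 321 and 255 on the matching Rb-null arrays. Each Rb-null array was above every control array. Controls averaged 183 (SD 18.9, n = 3) and Rb-null arrays 320.5 (SD 64.8, n = 3), and the log2 fold change was 0.72 (SE 0.25), with pair differences of 0.85, 0.71 and 0.60. It did not pass limma's test over 27019 probe sets (adjusted p = 1.00, unadjusted p = 0.0207; with the replicate block adjusted p = 0.128). In a fit with the block, a variance trend and robust moderation it did pass (limma adjusted p = 0.0445), as did 3.47% of all probe sets. Under the alternatives its log2 fold change stayed between 0.61 and 0.78.

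Stat5a and Stat5b, the close relatives that carry the signal to the nucleus, differed little between the groups. The bright Stat5a probe set read 162, 106 and 87.6 on controls 1, 2 and 3 and 131, 119 and 91.4 on the matching Rb-null arrays. Pair 1 was lower in Rb-null and the other 2 pairs were slightly higher, and the log2 fold change was -0.04 (SE 0.27, 95% interval -0.66 to 0.59). The other Stat5a probe set read 10.3 to 22.4 and lay under the filter. Both Stat5b probe sets were dim. The representative one read 40.5, 32.9 and 48.0 in controls but 40.2, 35.0 and 21.8 in Rb-null cells, and the other 23.1, 57.0 and 27.6 against 21.2, 49.0 and 13.7. On both, control and Rb-null were close in pairs 1 and 2 and Rb-null was lower in pair 3, with log2 fold changes of -0.24 (SE 0.28) and -0.27 (SE 0.36).

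**Figure D3:**
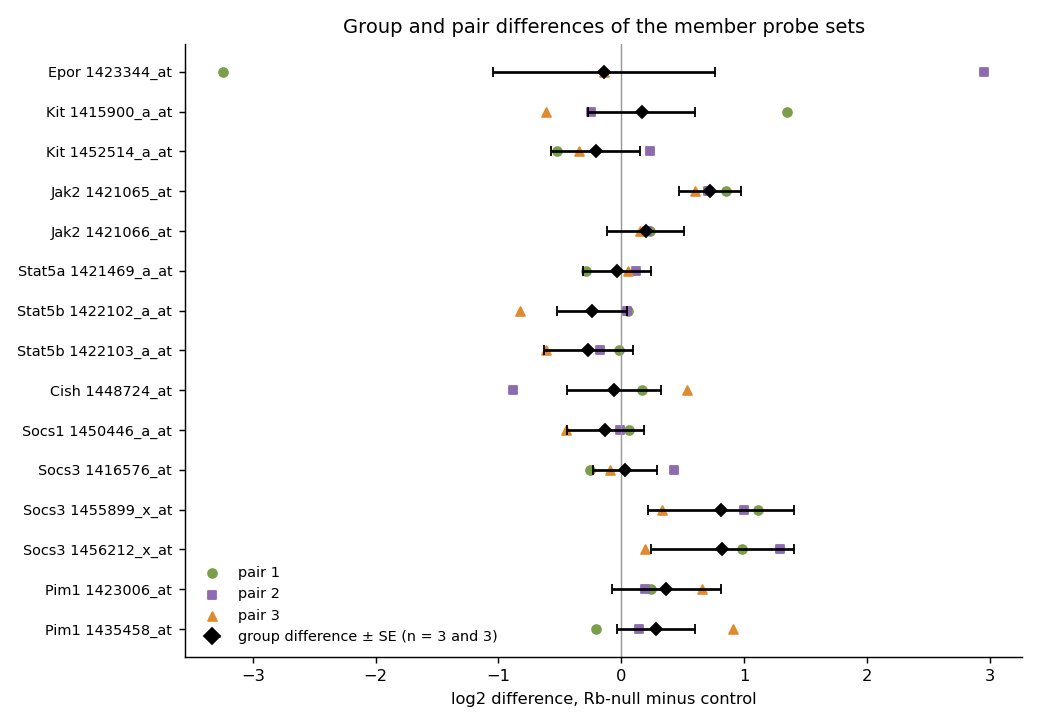
Difference between Rb-null and control on the log2 scale for the 15 member probe sets past the filter, with black diamonds for the group difference ± SE (n = 3 and 3) and coloured points for the 3 same-numbered pairs. Both Jak2 probe sets, 2 of the 3 of Socs3 and 1 of the 2 of Pim1 lie above 0 in every pair, and Epor spans from -3.24 to 2.96.

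The feedback genes did not move together. Cish, whose promoter holds the 2 STAT5 palindromes, encodes an SH2 protein that competes for receptor sites. It read 289, 629 and 163 on controls 1, 2 and 3 and 335, 337 and 242 on the matching Rb-null arrays. Rb-null was higher in pairs 1 and 3 and lower in pair 2, and the 3 Rb-null arrays lay inside the range of the controls. The log2 fold change was -0.06 (SE 0.38), with pair differences of 0.17, -0.88 and 0.54, and 0.34 without control array 2. Set beside Epor, the pairs in which the Epor probe set swung widely had the opposite sign in Cish. Pair 1 was -3.24 in Epor and 0.17 in Cish, and pair 2 was 2.96 and -0.88. The pair 1 value of Cish was smaller than its SE of 0.38. Other members were divided on the probe sets that stand for them. Socs1 also had signs opposite to Epor (0.06 and -0.008). Kit (-0.53 and 0.24), Stat5a (-0.28 and 0.12) and Pim1 (-0.21 and 0.15) had the signs of Epor, and Jak2, Stat5b and Socs3 were positive in both pairs. The share of all genes with either order was not counted, and a relation between Epor and Cish was not tested.

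Socs1, an inhibitor that blocks the JAK kinases directly, read 92.8, 55.5 and 83.5 on controls 1, 2 and 3 and 93.9, 55.6 and 57.6 on the matching Rb-null arrays. The arrays of pairs 1 and 2 were nearly equal within each pair, and only pair 3 differed, by -0.45. Its log2 fold change was -0.13 (SE 0.31, 95% interval -0.84 to 0.57; limma adjusted p = 1.00).

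Socs3, which binds receptor and JAK kinase together, was read by 3 probe sets. The representative one read 59.3, 51.0 and 9.19 on controls 1, 2 and 3 and 140, 124 and 16.3 on the matching Rb-null arrays. A further one read 41.1, 28.6 and 4.98 and then 91.5, 99.3 and 8.50. On both, Rb-null was higher in each pair, but the arrays numbered 3 were low in both groups, so the groups overlapped. The log2 fold changes were 0.81 (SE 0.59) and 0.82 (SE 0.58), with pair differences of 1.11, 1.00 and 0.33 on the first and 0.98, 1.29 and 0.19 on the other.

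The remaining Socs3 probe set did not show this difference. It read 53.2, 38.9 and 36.9 in controls but 39.4, 59.6 and 34.9 in Rb-null cells, so that its log2 fold change was 0.03 (SE 0.26). The names of the first 2 end in x_at, Affymetrix's mark for probes that may also match other transcripts. Socs3 did not pass the test (limma adjusted p = 1.00, unadjusted p = 0.203). With the replicate block its unadjusted p was 0.00796 and its adjusted p 0.168, and it was the 1 member of 9 with an unadjusted p under 0.05 in that fit, where 16.9% of all genes had one. Leaving out Rb-null array 1 gave 0.11 and leaving out Rb-null array 3 gave 1.49. Granulocytes, which can also express Socs3, had marker sums of 36009 and 26729 on control and Rb-null array 1, of 52976 and 53561 in pair 2 and of 40706 and 32814 in pair 3, and their part in the result was not tested.

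Pim1, a serine/threonine kinase that promotes survival, was bright. The representative probe set read 1411, 1165 and 1011 on controls 1, 2 and 3 and 1332, 1327 and 2021 on the matching Rb-null arrays. Rb-null array 3 was the high one, and the other 5 arrays lay between 1011 and 1411. The other probe set read 426, 549 and 765 in controls but 553, 630 and 1285 in Rb-null cells, higher in each pair. The log2 fold changes were 0.28 (SE 0.31) and 0.37 (SE 0.45), the first with pair differences of -0.21, 0.15 and 0.91, and neither passed the test (limma adjusted p = 1.00). Without both arrays numbered 3 the first was -0.04.

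Read together, 0 of the 9 genes were called by limma, where 0 of 13232 genes tested were called (0% of them), while 537 (4.06%) had an unadjusted p under 0.05, none of them a member. With the replicate block 0 genes were called again, and 2237 (16.9%) had an unadjusted p under 0.05. Counts by direction over all genes were 2.55% higher and 1.51% lower without the block, and 7.77% and 9.14% with it. Groups without overlap were found for 0 of the 9 genes, where 9.92% of all genes had them (5.13% higher and 4.78% lower). Among the 15 probe sets past the filter, 1 had such groups, the dimmer one of Jak2, where 9.64% of all probe sets did (5.73% higher). The same probe set was the 1 of 15 with an unadjusted p under 0.05, where 4.14% of all probe sets had one. Of the 9 genes, 2 (Jak2 and Socs3) were higher in all 3 pairs, where 18.4% of all genes were, and 0 were lower in all 3, where 24.1% were. The median log2 fold change was -0.06 over the 9 genes and -0.04 over all genes tested. Of the 15 probe sets, 5 were higher in all 3 pairs, where 20.3% of all probe sets were, and these 5 belong to Jak2, Socs3 and Pim1. The dimmer Stat5b probe set was the 1 of 15 that was lower in all 3, where 22.0% of all probe sets were.

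Genes around the members were taken from 5 lists, and limma called 0 genes in each of them in either direction. The lists include the members and were chosen with earlier results of these data known. Their shares beside those of all genes are therefore description and not a test. The 5 list medians ran from -0.17 to 0.03, and the sign of 4 of them turned when single arrays were left out, that of the JAK, STAT and Src list being the exception. Among 14 tested ligands and receptors the median log2 fold change was -0.15 with 4 positive, and 0 genes had an unadjusted p under 0.05. Groups without overlap were found for 1 (7.14%, against 9.92% of all genes). Without control array 1 the median was 0.0055, and without Rb-null array 1 it was -0.046. The gene without overlap was Kitl, which encodes stem cell factor, with a mean of 23.6 in controls (SD 12.5, n = 3) and of 38.3 in Rb-null cells (SD 2.29, n = 3). The groups of Kitl were almost tied, since the arrays of pair 2 differed by only 0.00093 on the log2 scale. Kitl was also dim, with a control mean near the filter intensity of 18.9. The log2 fold change of Kitl was 0.52 (SE 0.28). Acvr2a, an activin receptor, had -0.76 (SE 0.42), and Tfr2, the transferrin receptor that also associates with Epor, -0.51 (SE 0.36).

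Among 17 tested JAK, STAT and Src family genes the median was -0.17 and 4 were positive, while 0 had an unadjusted p under 0.05. Leaving out control array 2 moved the median to -0.34 and leaving out control array 3 to -0.01. Jak1, the kinase of interferon and gp130 receptors, averaged 761 in controls (SD 64.1, n = 3) and 602 in Rb-null cells (SD 83.0, n = 3). Its groups did not overlap, the only case in this list (5.88%, against 9.92% of all genes). Its log2 fold change of -0.38 (SE 0.24) ran opposite to that of Jak2. Tyk2, another JAK kinase, had -0.32 (SE 0.28), and Fyn, a relative of Lyn, -0.76 (SE 0.40).

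The 39 tested adaptors and genes of the PI3 kinase and MAP kinase branches had a median of 0.03, with 20 positive. Where 2.55% of all genes were higher at an unadjusted p under 0.05, 2 of the 39 were. These were Irs2, the insulin receptor adaptor, at 1.86 (SE 0.27), and Rac1, a small GTPase of the actin skeleton, which averaged 964 in controls (SD 220.2, n = 3) and 1909 in Rb-null cells (SD 317, n = 3). Pik3cb, a catalytic subunit of PI3 kinase, had 0.96 (SE 0.59). Without Rb-null array 1 the list's median was -0.048. In the fit with the block, a variance trend and robust moderation 3 of the 39 were called (7.69%, against 3.57% of all genes), Irs2 and Rac1 higher and Rac2, the GTPase of blood cells, lower. Among 38 tested negative regulators the median was 0.01, with 20 positive. Against the same 2.55% of all genes, 1 of the 38 was higher at an unadjusted p under 0.05. That one was Usp18, which restrains interferon receptor signalling, at 0.78 (SE 0.30). Ptprc, the leukocyte phosphatase CD45, had -0.87 (SE 0.40) and Pias2, a SUMO ligase, -0.43 (SE 0.31). Leukocytes express Ptprc and Fyn, so leukocyte markers are given beside their values. B cell markers, 8 of 10 past the filter, summed to 564 to 898 in controls and 341 to 519 in Rb-null arrays. Their median log2 fold change was -0.32, from -1.09 for Cd79b to 0.05 for Pax5. Only this marker list had sums without overlap, and 9.92% of all single genes had groups without overlap. Macrophage markers, 11 of 11, summed to 1910 to 3207 and 1695 to 2016 with overlap and a median log2 fold change of -0.28. T and NK cell markers, 6 of 10 past the filter, summed to 479 to 567 and 421 to 536, with a median log2 fold change of -0.14. Granulocyte markers summed to 36009 to 52976 and 26729 to 53561, with -0.41, and the groups overlapped in both lists. The part of any of these cells in the values of Ptprc and Fyn was not tested.

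The 29 tested STAT5 feedback and target genes were the remaining list. Their median was -0.01 with 14 positive. A nominal p below 0.05 was found for 4, all of them higher, where 2.55% of all genes were higher at such a p. Groups without overlap were found for 5 of them (17.2%, against 9.92% of all genes). Trib3, a pseudokinase also induced by cell stress, averaged 76.7 in controls (SD 39.7, n = 3) and 264 in Rb-null cells (SD 52.6, n = 3), and its log2 fold change was 1.69 (SE 0.42; limma adjusted p = 0.522). Cxcr4, the chemokine receptor that holds cells in the marrow, read 662 ± 238 (SD, n = 3) and 1464 ± 380 (SD, n = 3), with 1.12 (SE 0.32; limma adjusted p = 0.723). Irs2, counted here as well, had the lowest adjusted p of the list (limma adjusted p = 0.250). In the fit with the block, a variance trend and robust moderation, 6 of the 29 were called against 3.57% of all genes, and none of the 9 members. Among these, named for passing that fit, Irs2, Trib3, Cxcr4, Pim2 and Gfi1b were higher and Bcl2l1, the survival factor BCL-XL, was lower. The list was chosen with earlier results of these data known, so its shares do not test STAT5 targets as a set.

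**Figure D4:**
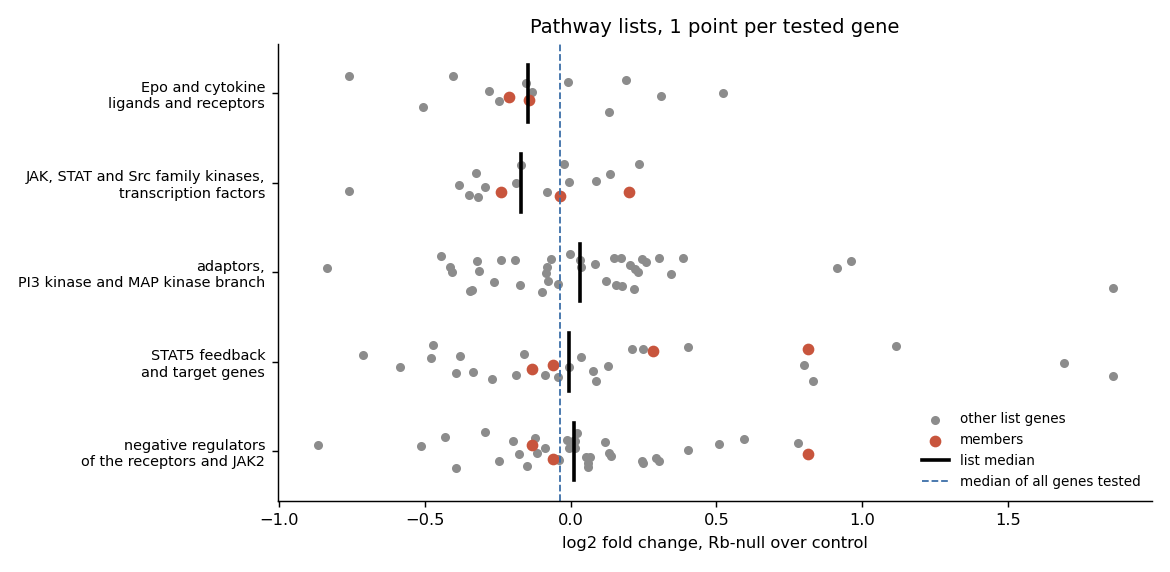
Log2 fold change, Rb-null over control, of each tested gene in the 5 pathway lists (grey, other genes; red, members; black bar, list median; dashed line, median of all genes tested at -0.04). List medians run from -0.17 to 0.03, and the points furthest to the right are Irs2, which stands in 2 lists, and Trib3.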

How the data were processed

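Biotin-labelled total RNA of sorted bone marrow cells, isolated by Trizol and QIAGEN columns per the labels, was read on 6 arrays. The values as deposited are linear intensities, 1 per probe set. The authors' summarisation and scaling of them were not given in the sources used here. Left out were 64 control probe sets, 4 empty ones and 1 with a value beyond a 16-bit scanner. Values were taken as log2(value + 16) and quantile normalized, since array medians differed by 0.264, above a limit of 0.2. Probe sets above the 40th percentile of mean signal (log2 5.12) were kept, and the one with the highest mean stood for a gene. Symbols come from the platform annotation, matched to RefSeq by gene ID.

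Groups were compared with limma 3.58.1 in R 4.3.3 (2-sided, Benjamini-Hochberg over all genes or all probe sets tested, threshold 0.05), which was tested on simulated data. SE and intervals come from the fit without the replicate block. An exact permutation test of 3 against 3 cannot go below p = 0.1, so none was run. Deviations from the group means correlated across genes at 0.636, 0.615 and 0.653 for arrays of one number and at most 0.0370 otherwise. Differences are therefore also given by title number, as pairs. The main test with its SE and intervals does not use this pairing, since the labels state no block. With the block the SE was smaller in every member but Epor. It was 0.14 against 0.31 in Jak2 and 0.20 against 0.59 in Socs3, but 1.08 against 0.90 in Epor. The members and lists were chosen with earlier results of these data known. Named list genes are the 3 with the smallest p outside the members. Alternatives covered scaling, offset, filter, probe set choice, block, array weights and left-out arrays.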

Additional observations from a re-analysis of the deposited data

How the results depend on the processing

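With the replicate block limma called 0 genes (lowest adjusted p = 0.0844), and no member gene was called under any of the 17 alternatives, while the dimmer Jak2 probe set was called under 1 of them, the block with trend and robust moderation. Over all genes 2 were called with an offset of 64, 3 with array weights and 473 with the block, variance trend and robust moderation, where 938 probe sets were called. Other settings called 0 genes and 0 probe sets. The block changed no call. Kit and Stat5b had no value with the 60th percentile filter.

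Signs of members turned in these cases, and none of the values passed the test. Without both arrays numbered 3, Pim1 had -0.036, Socs1 0.027 and Stat5b 0.052, and with array weights Socs1 had 0.0035. With 1 array left out, Epor ran from -0.93 to 0.69, Kit from -0.41 to 0.24, Jak2 from -0.012 to 0.40, Stat5a from -0.14 to 0.15, Cish from -0.39 to 0.34 and Socs1 from -0.35 to 0.026. Kit had 0.054 without Rb-null array 3, Stat5a 0.00087 without the same array, Socs1 0.016 without control array 3 and Epor 0.59 without Rb-null array 1. Socs3 stayed positive under all 17 alternatives, from 0.11 to 1.49. The cause was not tested. Low signal over background limits Kit, Stat5b and Socs3.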
